A study of Rattus norvegicus with 12 samples.

Results

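*Fos* (ENSRNOG00000008015), *Egr1* (ENSRNOG00000019422), *Jun* (ENSRNOG00000026293) and *Myc* (ENSRNOG00000004500) are classical immediate early genes, chosen here by their identifiers. All 4 were found among the 15920 genes of an RNA-seq table from neonatal rat ventricular myocytes (NRVM), primary heart muscle cells isolated from Sprague Dawley pups on postnatal day 2 to 3. The cells were serum-starved, treated for 48 h by the sample labels and profiled with 3 libraries for each of 4 treatments: vehicle (baseline), phenylephrine at 100 µM (PE), THZ1 at 10 nM, and PE + THZ1 at the same concentrations. By the paper's methods, inhibitor or vehicle was given 3 h before PE. Wording such as THZ1 added to PE therefore compares groups and does not give the order of treatment. The names of the 6 PE and PE + THZ1 columns in the table give 24 h in place of 48 h, so the exact time is uncertain. Cultures had been preplated and exposed to BrdU to reduce nonmyocytes, and the sources do not say whether libraries of a group came from separate cell preparations. The p-values therefore measure the spread between these libraries, which may be technical. Cardiac and nonmyocyte marker genes could not be looked up, because the table carries no symbols and 0 of its identifiers were paired with one in the reference at hand.

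Immediate early genes are switched on within minutes of a stimulus without new protein synthesis, and their transcripts are short-lived. *Fos* and *Jun* encode leucine zipper proteins that pair to form the AP-1 transcription factor. *Egr1* encodes a zinc finger transcription factor, and *Myc* encodes a transcription factor that drives ribosome production and cell growth. PE is an α1-adrenergic agonist that signals through Gq and the ERK kinases to produce hypertrophy of cultured cardiomyocytes, and these genes are known for a brief burst at the start of that response. THZ1 is a covalent inhibitor of CDK7, CDK12 and CDK13, kinases that phosphorylate RNA polymerase II during initiation and elongation. The libraries were made a day or more after PE was added, so the values describe the late state and not the early burst.

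A textbook route to *Fos* and *Egr1* runs through the CArG box, a stretch of A and T bases between CC and GG that binds serum response factor (SRF). The RefSeq promoter table used here (build GRCr8) holds a window for *Egr1* alone of the 4 genes and was searched on both strands over the 250 bases before the start site. The stretch with the matches is shown as background. The other genes could not be compared, and whether the boxes bear on the changes below was not tested. It lies at chr18:26736953-26737024 on the plus strand, from 125 to 54 bases before the start site, with the 2 CArG boxes in capitals.
*Egr1* promoter: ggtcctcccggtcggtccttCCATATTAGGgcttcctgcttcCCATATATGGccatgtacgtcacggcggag
The boxes begin 105 and 83 bases before the start site. A CArG box was present in 501 of 33469 windows of this length (1.50%). At least 2, a cut-off taken from the *Egr1* window itself, were present in 7 (0.0209%), *Egr1* among them. The *Egr1* window held 0 matches to the full cAMP response element TGACGTCA (1.59% of windows), the AP-1 site TGACTCA (4.05%; its reverse complement TGAGTCA is the same site), the E-box CACGTG that MYC binds (5.59%), the EGR site GCGTGGGCG (0.478%) or TATAAA (12.9%). These matches describe the letters of the window only, and they come from another build than the rn5 used for the reads.

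The reads counted on genes could be recovered from the deposited normalized counts and ranged from 30458862 to 45885754 per library. Each of the 4 genes had between 429 and 4191 reads in a library, for a counting error of 1.54% to 4.83%. The coefficient of variation within a group ran from 1.37% to 16.5%. It was below the counting error for *Fos* at baseline (1.69% beside 4.01%) and with PE (3.66% beside 4.51%). The same held for *Myc* at baseline (1.37% beside 4.03%) and with THZ1 (4.30% beside 4.43%), and in the other groups it was above. The SDs printed for these *Fos* and *Myc* groups are therefore smaller than counting alone gives. Baseline replicate 2 stood apart from the other baseline libraries, with a chi-square of 58.9 and 62.7 per gene against them, while replicate pairs not including it gave 2.21 to 9.65. Every call below against baseline held without that library. After the authors' scaling, summed normalized counts were 38.0 M at baseline, 40.4 M with PE, 34.2 M with THZ1 and 33.8 M with PE + THZ1. Changes with libraries scaled to equal totals are given wherever they alter a call. Every scaling used sets the libraries to a common reference, and the methods describe no spike-in. Each rise or fall below is therefore relative to the other transcripts, and amounts per cell were not measured. In bulk RNA, fewer cells of a type and less RNA per cell cannot be told apart.

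*Fos*, which encodes an AP-1 subunit that needs a partner of the JUN family, was lower with each drug alone and higher with both together. Its normalized counts at baseline were 617, 622 and 638. With PE they were 545, 511 and 544, with all 3 libraries below the lowest baseline library. With THZ1 they were 509, 515 and 458, again below every baseline library and overlapping with PE. With PE + THZ1 they were 741, 716 and 897, above every other library of the series. In order of mean level, THZ1 (494 ± 31.4, SD, n = 3) and PE (533 ± 19.5) overlapped, and baseline (626 ± 10.6) and PE + THZ1 (785 ± 98.5) each stood clear of the group beneath. The share of all genes whose groups separate like this was not counted, for this gene or for those below.

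The fall of *Fos* with PE was small. Its log2 change was -0.23 (standard error 0.077, adjusted p = 0.019, limma), against a background of 50.2% of all tested genes that differed between PE and baseline and 23.0% that were lower. With equal library totals the genes that differed went from 4338 higher and 3654 lower to 2819 and 4729. The call for *Fos* was lost when baseline replicate 3 (log2 change -0.22, adjusted p = 0.054) or PE replicate 2 (-0.20, adjusted p = 0.075) was left out, and over all single omissions the adjusted p from limma ran from 0.0060 to 0.075. With THZ1 alone *Fos* fell by 21.1% (log2 change -0.34, standard error 0.077, adjusted p = 0.0013, limma). With equal totals that fall was smaller and close to the threshold (log2 change -0.19, adjusted p = 0.048, limma). Between THZ1 and baseline 47.1% of all genes differed, 23.4% higher and 23.7% lower (3726 and 3771, or 5975 and 2264 with equal totals). *Fos* was 1.46-fold higher with PE + THZ1 than with PE (log2 change 0.55, standard error 0.077, adjusted p = 7.5e-06, limma). Between these groups 56.4% of genes differed and 28.0% were higher (4450 higher and 4521 lower, or 7877 and 2303 with equal totals). The level with both drugs also passed that at baseline, by 1.25-fold (log2 change 0.32, standard error 0.077, adjusted p = 0.0023, limma). Against baseline 49.1% of genes differed, 24.2% higher and 24.9% lower (3854 and 3961, or 6389 and 2211 with equal totals). PE + THZ1 replicate 3 was the highest library for *Fos*, as it was within its group for the other 3 genes. Without it the log2 change of *Fos* against baseline was 0.22 (adjusted p = 0.019, limma, the highest over single omissions, from 0.0016).

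*Egr1*, whose protein activates growth and stress genes in many cell types, had the same order of group means. Unlike *Fos*, its PE + THZ1 libraries overlapped with baseline, and its means with PE and with THZ1 were nearly equal. Baseline libraries had 3547, 3156 and 3597 normalized counts. The PE libraries had 1890, 2283 and 2638, and the THZ1 libraries had 2351, 2292 and 2153. Both sets lay below every baseline library and overlapped with each other. With PE + THZ1 the counts were 3401, 3155 and 4111, from just below the lowest baseline library to above the highest. The means were 3433 ± 242 (SD, n = 3) at baseline, 2271 ± 374 with PE, 2265 ± 102 with THZ1 and 3556 ± 497 with PE + THZ1. The spread of the PE libraries, a coefficient of variation of 16.5% beside a counting error of 2.21%, was the widest of the 16 gene and group combinations.

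With PE *Egr1* fell by 34.3% (log2 change -0.61, standard error 0.099, adjusted p = 5.5e-05, limma), and with THZ1 alone it fell by 33.9% (log2 change -0.60, standard error 0.099, adjusted p = 7.4e-05, limma). These reductions exceeded in size the changes of 82.4% and 84.6% of all genes in the same comparisons. THZ1 added to PE raised *Egr1* 1.57-fold (log2 change 0.65, standard error 0.099, adjusted p = 1.8e-05, limma). Equally, PE added to THZ1 raised it 1.56-fold (adjusted p = 0.00012, limma), and raised *Fos* 1.58-fold (adjusted p = 6.9e-06, limma), in a comparison in which 21.4% of genes differed, 11.2% higher and 10.2% lower. With both drugs *Egr1* did not pass the test against baseline. The ratio was 1.03-fold with a 95% interval of 0.892 to 1.19 (adjusted p = 0.74, limma), and changes of either sign lie within that interval.

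**Figure D1:**
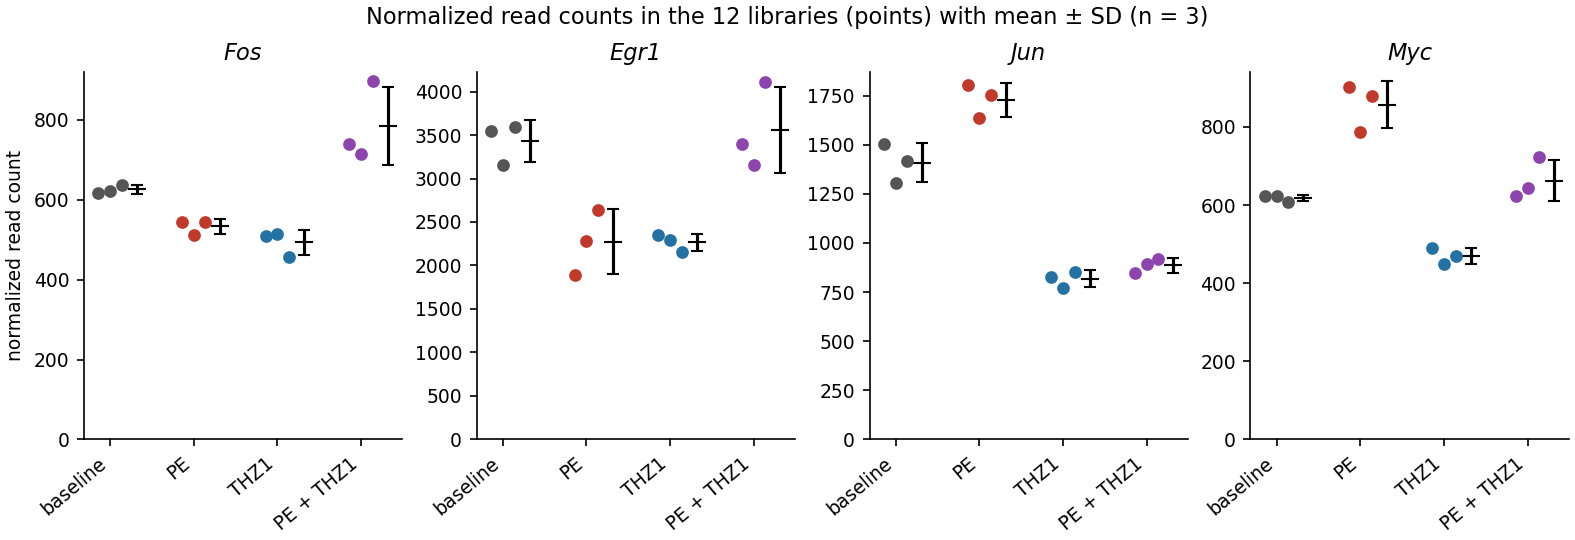
Normalized read counts (vertical axis, from 0, a separate scale per gene) of *Fos*, *Egr1*, *Jun* and *Myc* in each library, by group on the horizontal axis; points are libraries in replicate order and bars are the mean ± SD (n = 3). *Fos* and *Egr1* are low with PE and with THZ1 and high at baseline and with PE + THZ1, whereas *Jun* is low in both groups with THZ1 and *Myc* is highest with PE and lowest with THZ1.

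*Jun*, the AP-1 subunit that can also pair with itself, rose with PE and was reduced by THZ1 whether or not PE was present. Baseline libraries had 1505, 1307 and 1415 normalized counts, and PE libraries had 1802, 1633 and 1753, with no overlap. THZ1 libraries had 827, 769 and 853, and PE + THZ1 libraries had 847, 891 and 920, and all 6 were below every library without THZ1. The means were 1409 ± 99.0 (SD, n = 3) at baseline, 1729 ± 86.7 with PE, 817 ± 42.9 with THZ1 and 886 ± 36.6 with PE + THZ1. The neighbours that overlapped in this order were THZ1 and PE + THZ1.

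PE raised *Jun* 1.23-fold (log2 change 0.30, standard error 0.061, adjusted p = 0.00057, limma), where 27.2% of all genes were higher with PE. With THZ1 in the PE cultures *Jun* fell by 48.7% (log2 change -0.96, standard error 0.061, adjusted p = 2.3e-10, limma), a change larger in size than those of 90.0% of genes, and 28.4% of genes were lower. Without PE *Jun* fell by 42.0% with THZ1 (log2 change -0.79, standard error 0.061, adjusted p = 9.4e-09, limma). Compared with baseline, *Jun* fell by 37.0% with PE + THZ1 (log2 change -0.67, adjusted p = 7.3e-08, limma). In the presence of THZ1, PE did not change *Jun* past the threshold. The ratio of PE + THZ1 to THZ1 was 1.08-fold, with a 95% interval of 0.992 to 1.19 (adjusted p = 0.20, limma).

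*Myc* rose with PE and fell with THZ1 and overlapped with baseline in cultures given both. Its normalized counts were 623, 623 and 608 at baseline, and 902, 788 and 879 with PE. The THZ1 libraries had 489, 449 and 470, below every library of the other groups. The PE + THZ1 libraries had 622, 643 and 722, which overlapped with baseline and lay below every PE library. The means were 618 ± 8.45 (SD, n = 3) at baseline, 856 ± 60.2 with PE, 469 ± 20.2 with THZ1 and 662 ± 52.5 with PE + THZ1.

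PE raised *Myc* 1.38-fold without THZ1 (log2 change 0.47, standard error 0.069, adjusted p = 1.8e-05, limma) and 1.41-fold with it (log2 change 0.49, standard error 0.069, adjusted p = 4.5e-05, limma). With THZ1 alone *Myc* fell by 24.1% (log2 change -0.40, standard error 0.069, adjusted p = 0.00011, limma). With THZ1 added to PE it fell by 22.7% (log2 change -0.37, standard error 0.069, adjusted p = 0.00015, limma). That last call depends on the scaling. With equal library totals the log2 change was -0.11 (adjusted p = 0.18, limma; 7.2e-06 to 0.18 over all settings with every library), although the median of all genes moved from 0.012 to 0.27 under that scaling and *Myc* stood 0.38 below it. PE + THZ1 against baseline gave a ratio of 1.07-fold, with a 95% interval of 0.967 to 1.18 (adjusted p = 0.26, limma). With equal totals this became a log2 change of 0.26 (adjusted p = 0.0049, limma; 0.0049 to 0.32 over all settings with every library), where the median of all genes was 0.17.

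**Figure D2:**
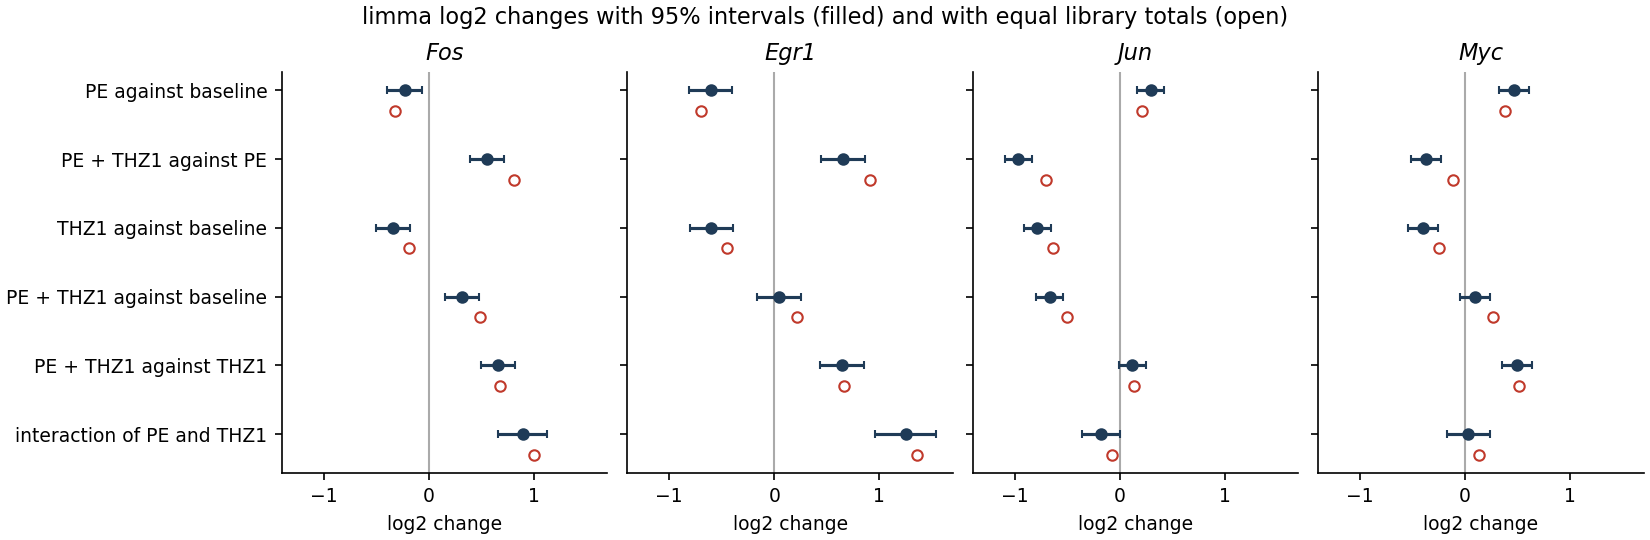
Log2 changes (horizontal axis) of each gene in the 6 comparisons (vertical axis); filled points are limma estimates with 95% intervals, and open points are the estimates with libraries scaled to equal totals. Against PE, *Fos* and *Egr1* lie at 0.55 and 0.65 with THZ1 added, while *Jun* and *Myc* lie at -0.96 and -0.37, and *Myc* moves to -0.11 with equal totals.

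Whether the effect of THZ1 depended on PE was tested with the interaction term, the log2 effect of THZ1 in PE cultures minus that in cultures without PE. Over all genes 28.3% had an interaction, 12.3% positive and 16.0% negative. That split turned from 1960 positive and 2550 negative to 2899 and 1063 with equal totals, which moved the median interaction of all genes from -0.012 to 0.094. Over single omissions the genes with an interaction, 4510 with every library, numbered from 3682 (without THZ1 replicate 2) to 6107 (without baseline replicate 2). The log2 interaction was 0.89 for *Fos* (standard error 0.11, adjusted p = 1.1e-05, limma) and 1.25 for *Egr1* (standard error 0.14, adjusted p = 3.9e-06, limma). These values were higher than those of 95.7% and 98.5% of all genes. The interaction was -0.18 for *Jun* (95% interval -0.36 to 0.0036, adjusted p = 0.14, limma) and 0.03 for *Myc* (-0.18 to 0.23, adjusted p = 0.86, limma). *Fos* and *Egr1* therefore had effects of opposite sign by the presence of PE, and the intervals of *Jun* and *Myc* still allow a moderate dependence.

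The joint pattern of *Fos* and *Egr1* was put together after their values were seen and counted over the whole table. Genes lower with PE and lower with THZ1 than at baseline numbered 867 of 15920 (5.45%). Those that were also higher with PE + THZ1 than with either drug numbered 34 (0.214%), *Fos* and *Egr1* among them. These comparisons share their baseline and their PE + THZ1 libraries, so the calls are not separate pieces of evidence. The number was 67 without baseline replicate 2, 22 without baseline replicate 3 and 19 without THZ1 replicate 2, and the range over all single omissions was 19 to 67. *Egr1* was included in each, and *Fos* in all but those without baseline replicate 3 or PE replicate 2. The pattern of *Jun* and *Myc*, higher with PE, lower with THZ1 alone and reduced by THZ1 in PE cultures, was found for 1457 genes (9.15%).

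**Figure D3:**
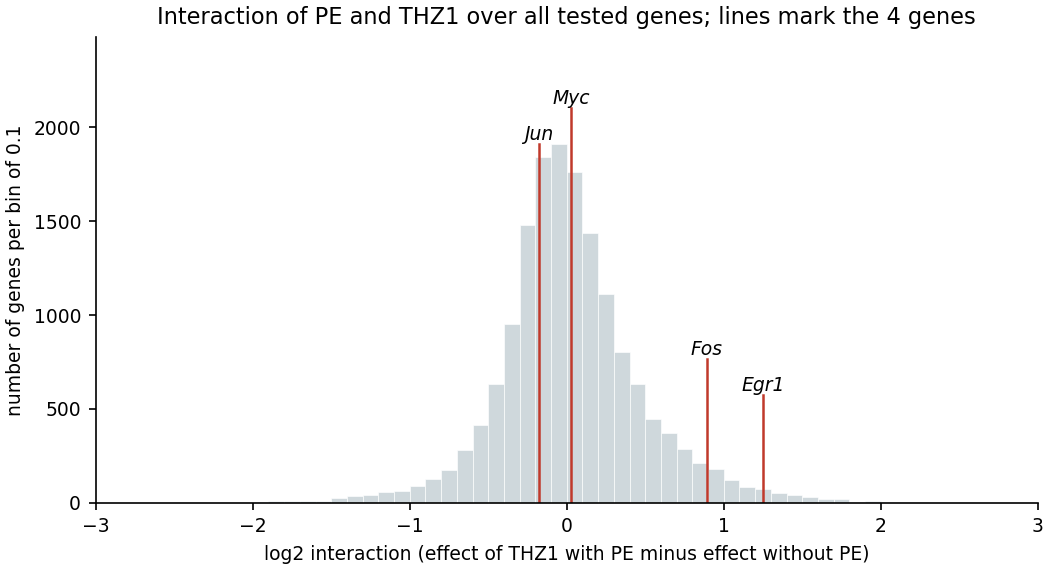
Number of genes (vertical axis) by log2 interaction of PE and THZ1 (horizontal axis, bins of 0.1; the 1 gene above 3 is in the last bin), with lines at the values of the 4 genes, whose heights carry no value. *Egr1* at 1.25 and *Fos* at 0.89 lie in the upper tail, and *Jun* at -0.18 and *Myc* at 0.03 lie near the centre.

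A ratio of the reads of 1 gene to those of another in the same library does not depend on how libraries are scaled. Its height carries no meaning, as gene length is not taken into account, but its change between groups does. The ratio of *Fos* to *Jun* reads was 0.446 ± 0.0332 (SD, n = 3) at baseline and 0.308 ± 0.00531 with PE. It rose to 0.607 ± 0.0665 with THZ1 and 0.885 ± 0.0866 with PE + THZ1, which is 2.86-fold above PE, and no 2 groups compared overlapped. *Egr1* to *Jun* changed alike, from 2.44 ± 0.0943 at baseline to 1.32 ± 0.238 with PE and 4.01 ± 0.464 with PE + THZ1. *Myc* to *Jun* was 0.440 ± 0.0328 at baseline, 0.495 ± 0.0106 with PE, 0.575 ± 0.0215 with THZ1 and 0.747 ± 0.0334 with PE + THZ1. It was thus higher with THZ1 than without, in the presence and absence of PE. Each of these differences gave p = 0.1 by an exact two-sided permutation test, the smallest that 3 libraries against 3 allow, except *Egr1* to *Jun* for THZ1 against baseline, where the groups overlapped (p = 0.2). Adjusted over all 16 ratio comparisons the smallest p was 0.114, so no ratio could pass 0.05.

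The ratio of *Egr1* to *Fos*, the pair of like pattern, was highest at baseline. *Egr1* to *Fos* was 5.49 ± 0.363 (SD, n = 3) at baseline and 4.26 ± 0.714 with PE, 4.59 ± 0.125 with THZ1 and 4.53 ± 0.103 with PE + THZ1, with every treated library below every baseline library (exact permutation p = 0.1 in each case). Between PE + THZ1 and PE the ratio differed by 1.07-fold with overlapping libraries (exact permutation p = 0.8).

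**Figure D4:**
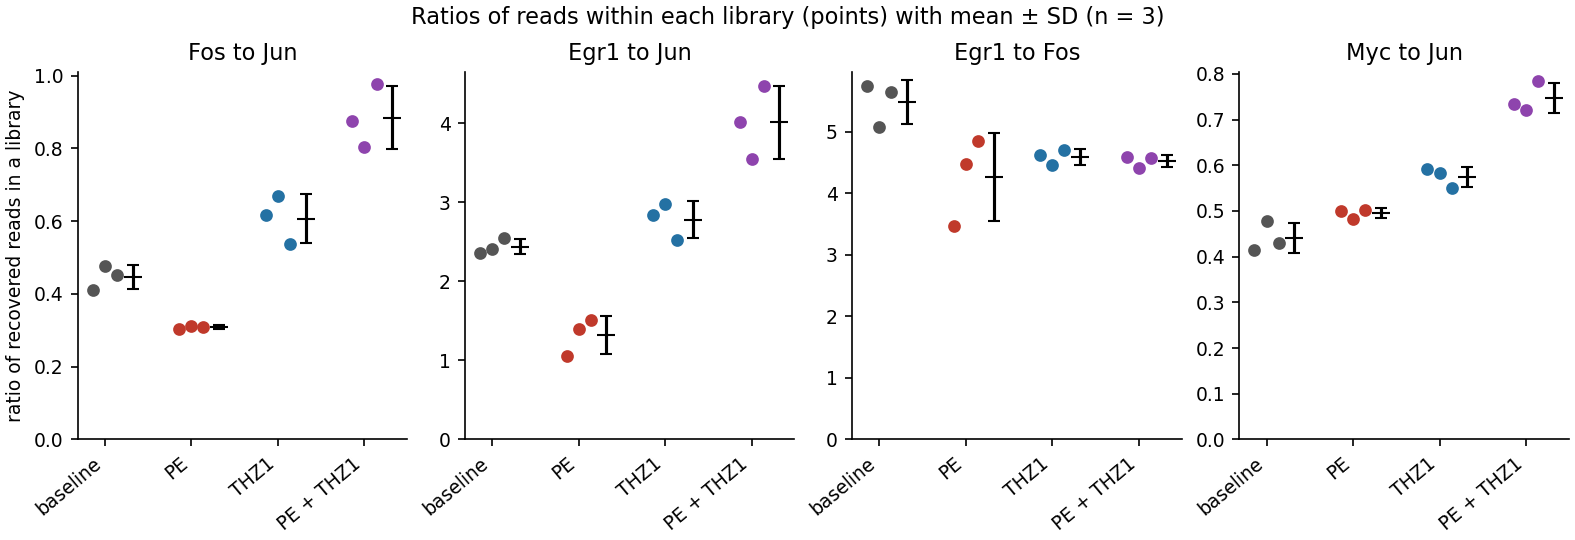
Ratio of recovered reads of 2 genes within a library (vertical axis, from 0) by group (horizontal axis); points are libraries and bars are the mean ± SD (n = 3). *Fos* to *Jun* goes from 0.308 with PE to 0.885 with PE + THZ1, *Egr1* to *Jun* from 1.32 to 4.01, and *Egr1* to *Fos* is highest at baseline.

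The authors' clusters of row-scaled expression, given as numbers in the table, placed the 4 genes in 3 of 6 clusters. The numbers used here are the table's own and are not those of the paper's cluster descriptions. *Jun* and *Myc* shared the table's cluster 2, which has 3740 genes and was highest with PE (mean z-score 1.27), and each followed its mean profile closely, with a Pearson r over the 12 libraries of 0.890 and 0.886 where the median gene of the cluster had 0.871. *Fos* was placed in cluster 1, of 5024 genes, and followed it poorly, with r = 0.211 against a median of 0.742, higher than 5.33% of the genes there. The mean z-score of that cluster was 0.710 with THZ1 alone, where *Fos* stood at -0.92. *Egr1* was placed in the table's cluster 5 (2263 genes), which was lowest with PE (mean z-score -0.79), with r = 0.446 against a median of 0.619, and its z-score with THZ1 was -0.88 where that of the cluster was 0.294. The clusters were made from these libraries, so the values are a description.

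Among the 11164 genes whose mean over all libraries reached 100 normalized counts, likeness was measured by the Pearson r of log2(normalized count + 1) over the 12 libraries, which fall into 4 treatment groups. *Egr1* ranked 21 of 11163 in likeness to *Fos*, with r = 0.856. The gene most like *Fos* was ENSRNOG00000030210 (r = 0.917), with means of 3949 normalized counts at baseline, 3682 with PE, 3708 with THZ1 and 4714 with PE + THZ1. The gene most like *Egr1* was ENSRNOG00000030759 (r = 0.916), with 560, 436, 430 and 609 in the same order. *Jun* was most like ENSRNOG00000018898 (r = 0.997) and *Myc* most like ENSRNOG00000001277 (r = 0.987). *Jun* and *Myc* had r = 0.775 with each other, and *Myc* ranked 2342 of 11163 in likeness to *Jun*. *Fos* and *Jun*, the AP-1 partners, had r = -0.17, with *Fos* at its highest and *Jun* at a low level with PE + THZ1.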

How the data were processed

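RNA-seq of NRVM was analysed in 12 libraries. By the methods, the authors aligned single-end reads to rn5 with TopHat (2.1.1 per the labels), assigned them to genes by strand with htseq-count, and scaled each library by its DESeq2 size factor. The deposited values are this signal, gene counts over a size factor. Reads were recovered from its steps, with 100% of values whole within 0.01 of a read and size factors of 0.857 to 1.33. An unnamed column holds the authors' cluster numbers.

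All 15920 genes, whose mean over libraries was 1 normalized count or more, were tested with limma 3.58.1 (R 4.3.3) on log2(normalized count + 1), which slightly understates changes, in 1 fit of 4 groups with a trended prior variance, two-sided, with Benjamini-Hochberg adjustment over all genes and a threshold of 0.05. The fit was also run on simulated counts with the same spread beyond counting for every gene and no outlying library. Those settings differ from these data, so the simulation is a check of the code only. edgeR 4.0.16 and DESeq2 1.42.0 on the recovered reads, other scalings, pseudocounts, filters and omitted libraries were alternatives. Ratios were tested with scipy 1.17.1. Depth sets the counting error given for each gene, which does not cover differences between cultures. The genes named were the 4 given and the gene most like each. Lists of related genes and cell type markers fixed by symbol could not be applied, as 0 identifiers were matched among 47357 RefSeq entries. The genes and lists were chosen with earlier results of these data known.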

Additional observations from a re-analysis of the deposited data

Results flagged for a closer look

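For 2 genes the effect of THZ1 differed with the presence of PE by the interaction term. For *Fos* the log2 effect of THZ1 with PE minus that without PE was 0.89 (adjusted p = 1.1e-05, limma), from -0.34 without PE to 0.55 with PE. For *Egr1* the difference was 1.25 (adjusted p = 3.9e-06, limma), from -0.60 to 0.65. In both genes every PE + THZ1 library was above every PE library and every THZ1 library was below every baseline library. How many of all genes separate in this way was not counted. Over all genes 28.3% had an interaction, 56.4% differed between PE + THZ1 and PE, and 47.1% differed between THZ1 and baseline. With each library left out in turn the difference ranged from 0.79 to 0.95 for *Fos* and from 1.12 to 1.36 for *Egr1*.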

How the results depend on the processing

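For the 4 genes in 6 comparisons, 282 values under other settings that kept all libraries held their direction and their side of the threshold, and 2 did not. These were *Myc* with libraries scaled to equal totals, at -0.11 for PE + THZ1 against PE (-0.37 as deposited) and 0.26 for PE + THZ1 against baseline (0.096 as deposited), a scaling that moves the median of all genes. With single libraries left out, 281 values held and 7 did not. The latter were *Fos* for PE against baseline (range -0.25 to -0.20), and the sign, never past the threshold, of *Egr1* for PE + THZ1 against baseline (-0.065 to 0.13, negative at -0.016 without baseline replicate 2 and -0.065 without PE + THZ1 replicate 3) and of the *Myc* interaction (-0.036 to 0.071, with -0.0040 without THZ1 replicate 2, -0.031 without PE replicate 2 and -0.036 without PE + THZ1 replicate 3). No interaction was fitted with only the groups compared, since it needs all 4. The replicate block changed no call of the 4 genes (*Fos* for PE against baseline, adjusted p = 0.020 by limma) and gave 8162 genes for PE against baseline in place of 7992. Deviations of same-numbered libraries correlated at -0.18 to 0.33 over 18 pairs (mean 0.073). The mean of -0.038 over 36 pairs with other numbers is no separate contrast, because deviations from a group mean cancel out within the group. Not every same-numbered pair had a correlation over 0.1, and the main fit used no pairing. That 9 of 12 libraries correlated best with their own number is at most a hint of pairing, from the data and not from the design. The same cancelling links these outcomes, and the number to be expected without pairing was not worked out. At these read counts the counting error limits mainly changes of a few percent. The 34 genes with the joint pattern of *Fos* and *Egr1* numbered 25 to 40 over the other settings, 31 with equal totals of which 14 were shared, and 19 to 67 with single libraries left out.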
